A study of Homo sapiens with 13 samples.

Results

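DNA replication and mitosis were followed through 45 genes, 24 that work in S phase or at its entry and 21 that work in mitosis. The genes were chosen by symbol from a list of known cell cycle genes, out of 62703 genes in both count tables. Each of the 45 symbols matched 1 gene identifier, and all 45 passed the filter on low counts in every comparison. Reads of 21 of the 45 genes could overlap another annotated gene, such as EIF4A2 at RFC4, ENOSF1 at TYMS, EXOSC9 at CCNA2 and INTS8 at CCNE2, and these levels are uncertain because the use of strand in counting is not given in the sources used here.

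The 13 libraries held poly-A RNA of 2 established ovarian cancer cell lines. SKOV3 cells, with no treatment named, carried a control vector, an RSF1 construct or an RSF1delUAB construct, with 3 libraries of each. RSF1 is a histone chaperone, the partner of the remodeller SMARCA5, that recognises ubiquitinated H2A by its UAB region, and the name RSF1delUAB marks that region as deleted. OVCAR3 cells carried a scramble control or expressed the UAB peptide, with 2 libraries of each, and all 4 had been given doxycycline at 2000 ng/mL for 6 days. Whether the engineered cells were pools or single clones, and whether libraries of a group came from separate cultures, is not given in the sources used here, so p-values measure only the spread between these libraries, which may be technical.

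Library totals ran from 15194678 to 18748009 counts in SKOV3 and from 18160558 to 24026993 in OVCAR3. RSF1 itself stood at 41.6 to 47.2 CPM (counts scaled to library size) in control, 647 to 789 in RSF1 and 468 to 515 in RSF1delUAB libraries, with reads of the gene and of the construct counted together, and at 551 to 768 CPM in OVCAR3. Epithelial keratins and PAX8 were present in both lines. EPCAM stood at 10.3 to 22.2 CPM in SKOV3 and 294 to 331 in OVCAR3, and WT1 at 0.132 to 3.69 and 10.2 to 61.6. MUC16 was at most 0.194 CPM in SKOV3, and 6 immune cell markers summed to at most 10.8 CPM in any library. In SKOV3 the endothelial markers (4 genes) summed to 5.20 to 7.58 CPM in control, 0.646 to 0.970 in RSF1 and 0.542 to 0.937 in RSF1delUAB. Their sum in OVCAR3 was 11.4 to 21.8 CPM. Fibroblast markers (6 genes) moved with the SKOV3 groups, from a sum of 6.20 to 7.18 CPM in control to 51.9 to 53.6 in RSF1 and 120.3 to 131 in RSF1delUAB libraries, with LUM, COL1A1 and COL1A2 above 0 in all 9, COL3A1 at 0.249 CPM at most and PDGFRB at 0 in control and RSF1delUAB. ERBB2, an amplified gene of SKOV3, stood at 7393 to 8659 CPM in control and RSF1delUAB and at 2192 to 2897 in RSF1 libraries. The part of these markers in the results below was not tested. RSF1 replicate 1 differed more from replicates 2 and 3 of its group (chi-square per degree of freedom 14.4 and 16.4) than those 2 did from each other (3.94). In bulk RNA, fewer cells in a phase of the cycle and less RNA per cell cannot be told apart.

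A cell copies its DNA once per cycle. In G1 the MCM2-7 helicase is loaded at replication origins by CDT1 and its partners, cyclin E with CDK2 and the E2F factors start S phase, CDC45 joins the helicase, and the RFC complex loads the sliding clamp PCNA for the polymerases. In G2 and mitosis cyclins A and B with CDK1, the Polo and Aurora kinases, the spindle checkpoint kinases, the centromere proteins and kinesin motors then build and check the spindle until CDC20 and the anaphase-promoting complex end mitosis. S-phase genes are classically driven by E2F sites in their promoters, and mitotic genes by the CHR element together with CCAAT boxes.

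Promoter words were counted in both classes, as a description with no test. RefSeq windows of 300 bases on GRCh38.p14, from 250 bases before to 50 after the start, were found for 37 of the 45 genes (21 S-phase and 16 mitotic). An E2F site was searched as TTTCCCGC, TTTCGCGC, TTTGCCGC or TTTGGCGC, a CHR element as TTTGAA or TTTAAA and a CCAAT box as CCAAT, each on both strands; words of different motifs can share at most 1 base, and a match describes letters only. An E2F word was present in 13 of the 21 S-phase genes (61.9%), 2 of the 16 mitotic genes (12.5%) and 3.99% of 27305 genes with a window. A CHR word was present in 4 of 21 S-phase genes (19.05%), 13 of 16 mitotic genes (81.3%) and 27.9% of all genes, and a CCAAT word in 12 of 21 (57.1%), 14 of 16 (87.5%) and 39.7%.

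**Figure D1:**
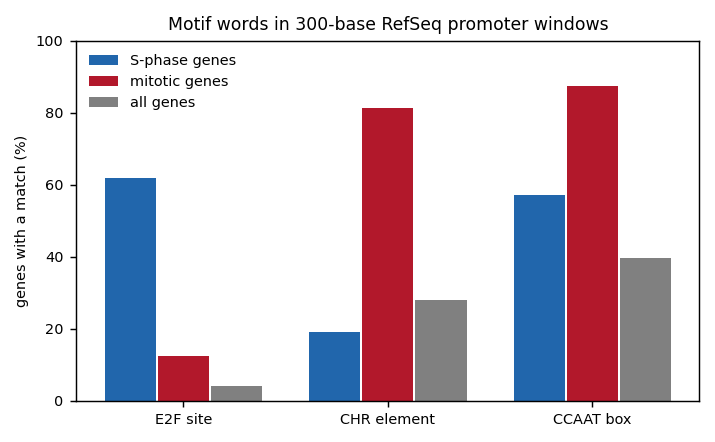
Share of genes (percent, vertical axis) whose 300-base RefSeq promoter window held a word of each motif, for the S-phase genes (blue, n = 21), the mitotic genes (red, n = 16) and all genes with a window (grey, n = 27305). E2F words stood in 61.9% of S-phase and 12.5% of mitotic genes, and CHR words in 19.05% and 81.3%.

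The windows of 5 genes whose levels the results below turn on are shown with E2F, CHR and CCAAT words in capitals, all on the plus strand and 5′ to 3′. RFC3 (chr13:33817899-33818198) and CDT1 (chr16:88803539-88803838) each hold 1 E2F word, read as GCGGGAAA on the strand shown, which begins 55 and 35 bases before the start. CDC20 (chr1:43358731-43359030) and PLK1 (chr16:23678639-23678938) hold CHR and CCAAT words and no E2F word. CCNE1 (chr19:29811741-29812040), the cyclin singled out in OVCAR3, holds TTTAAA and none of the 4 E2F words in a window that is 81.0% G and C.
RFC3: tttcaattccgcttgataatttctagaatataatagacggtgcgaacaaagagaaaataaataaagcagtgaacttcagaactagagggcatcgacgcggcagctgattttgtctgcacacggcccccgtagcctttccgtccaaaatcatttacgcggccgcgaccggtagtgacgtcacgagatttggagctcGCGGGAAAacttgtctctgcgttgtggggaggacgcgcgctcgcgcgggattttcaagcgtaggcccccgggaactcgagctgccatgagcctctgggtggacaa
CDT1: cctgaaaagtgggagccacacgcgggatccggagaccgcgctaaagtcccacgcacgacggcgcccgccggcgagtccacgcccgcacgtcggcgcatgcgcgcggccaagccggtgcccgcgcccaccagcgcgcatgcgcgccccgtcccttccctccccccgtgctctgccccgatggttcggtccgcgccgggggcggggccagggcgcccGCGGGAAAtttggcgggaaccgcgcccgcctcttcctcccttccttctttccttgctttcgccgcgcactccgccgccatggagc
CDC20: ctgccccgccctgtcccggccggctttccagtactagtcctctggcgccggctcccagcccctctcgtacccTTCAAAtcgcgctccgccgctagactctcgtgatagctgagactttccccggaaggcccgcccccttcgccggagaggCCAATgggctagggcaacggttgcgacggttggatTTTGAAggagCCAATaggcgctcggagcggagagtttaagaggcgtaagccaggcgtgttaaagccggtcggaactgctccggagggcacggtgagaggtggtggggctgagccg
PLK1: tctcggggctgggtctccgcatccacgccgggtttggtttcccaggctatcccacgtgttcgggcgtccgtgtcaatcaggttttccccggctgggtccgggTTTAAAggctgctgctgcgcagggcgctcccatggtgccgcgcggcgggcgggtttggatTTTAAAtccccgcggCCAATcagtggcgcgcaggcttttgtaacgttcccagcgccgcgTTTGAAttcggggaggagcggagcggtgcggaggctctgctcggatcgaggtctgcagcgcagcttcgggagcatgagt
CCNE1: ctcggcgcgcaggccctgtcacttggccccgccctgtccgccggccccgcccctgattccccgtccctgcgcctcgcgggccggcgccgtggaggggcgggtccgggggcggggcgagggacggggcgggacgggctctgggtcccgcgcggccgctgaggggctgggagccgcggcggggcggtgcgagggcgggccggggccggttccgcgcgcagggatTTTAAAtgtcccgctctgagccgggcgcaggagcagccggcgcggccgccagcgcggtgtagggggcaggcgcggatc

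Across the 5 groups the genes did not move as 1 block. The S-phase genes took 0.264 to 0.267% of all counts in control, 0.282 to 0.290% in RSF1 and 0.246 to 0.247% in RSF1delUAB libraries of SKOV3. The mitotic genes took 0.376 to 0.377%, 0.353 to 0.373% and 0.299 to 0.309% in the same order. The S-phase share was thus highest in the RSF1 libraries, the mitotic share was highest in control, and both were lowest in RSF1delUAB, with no overlap between the 3 groups for either. In OVCAR3 the S-phase genes took 0.199 and 0.215% with the scramble control and 0.201 and 0.205% with the UAB peptide, which overlap, and the mitotic genes took 0.203 and 0.208% against 0.229 and 0.246%, which do not. These shares weigh the most abundant genes most and carry no test. The median level over the S-phase genes had another order: it was 6.65 to 6.67 on the log2 CPM scale in control, 6.32 to 6.43 in RSF1 and 6.09 to 6.11 in RSF1delUAB libraries, so that control was highest. The median level over the mitotic genes was 6.96 to 7.07, 6.94 to 7.06 and 6.70 to 6.73 in the same order, with control and RSF1 overlapping.

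**Figure D2:**
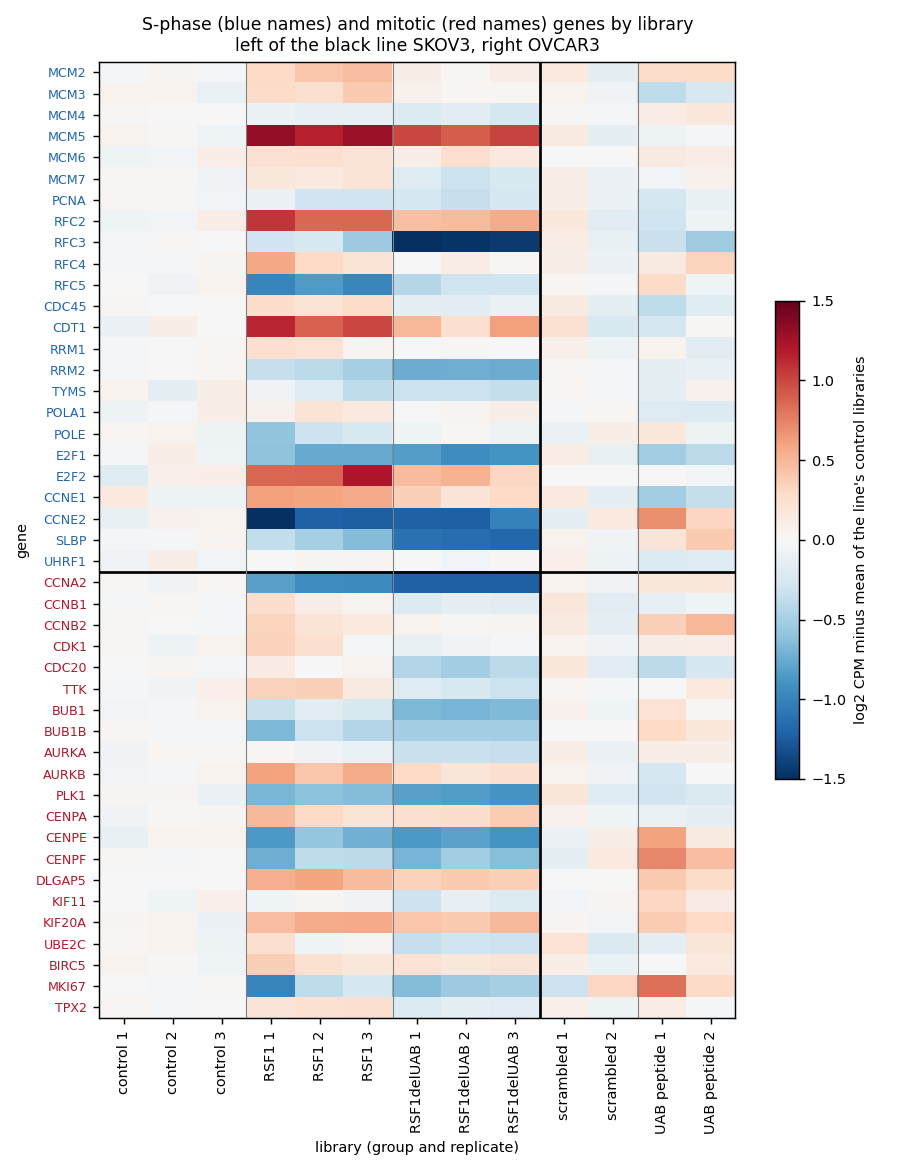
Each cell is 1 gene (rows, S-phase names in blue above the line, mitotic in red below) in 1 library (columns), coloured by its log2 CPM minus the mean of the control libraries of the same line. MCM5, RFC2, CDT1 and E2F2 are red in all 6 RSF1 and RSF1delUAB libraries, RFC3 is darkest blue in the 3 RSF1delUAB libraries, and most OVCAR3 cells are paler.

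The first comparison asked how the genes differ when SKOV3 cells overexpress RSF1. Of the 45 genes, 21 were higher and 16 lower than with the control vector (46.7% and 35.6%), in a comparison that called 34.3% of 16735 tested genes higher and 32.9% lower (67.3% in either direction). Among S-phase genes 12 of 24 rose and 9 fell, with a median log2 fold change of 0.15. Among mitotic genes 9 of 21 rose and 7 fell, with a median of 0.080, and the median of all tested genes was 0.015. The mitotic median was 0.021 without RSF1 replicate 1 and 0.16 without RSF1 replicate 2. Each class held both rises and falls, and they are taken by role below.

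Helicase genes mostly rose. MCM5, a helicase subunit gene at chr22:35400134-35425431, stood at 93.3, 91.2 and 85.9 CPM with the control vector, 224, 203 and 219.8 with RSF1 and 180.0, 169 and 182 with RSF1delUAB. All 6 libraries of the RSF1 forms lay far above the 3 controls (log2 fold change 1.26 ± 0.067, adjusted p = 1.85e-12 with RSF1, and log2 fold change 0.97 ± 0.067, adjusted p = 9.21e-11 with RSF1delUAB). With RSF1, MCM2 (0.39), MCM3 (0.31), MCM6 (0.22) and MCM7 (0.17) also rose, so 5 of the 6 subunit genes did, and MCM4 stood at a log2 fold change of -0.11 (adjusted p = 0.0933). The MCM7 call was lost without control replicate 3 (adjusted p = 0.0800). With RSF1delUAB, MCM5 and MCM6 (0.16) rose and MCM4 (-0.21) and MCM7 (-0.25) fell; MCM6 lost its call without any 1 of 4 of the 6 libraries (adjusted p 0.0745 to 0.171).

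The helicase loader CDT1 (chr16:88803789-88809258), whose promoter is shown above, stood at 24.0, 27.0 and 25.5 CPM with the control vector, 56.1, 47.1 and 50.8 with RSF1 and 36.1, 30.1 and 39.1 with RSF1delUAB. It was highest with RSF1, intermediate with RSF1delUAB and lowest in control, with no overlap between groups (log2 fold change 1.01 ± 0.099, adjusted p = 1.82e-08 with RSF1, and log2 fold change 0.46 ± 0.10, adjusted p = 0.000415 with RSF1delUAB). CDC45, which activates the helicase, rose by a log2 fold change of 0.25 with RSF1 and stood at -0.14 with RSF1delUAB (adjusted p = 0.122).

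Subunits of the clamp loader went in opposite directions. RFC2 stood at 38.2, 38.7 and 42.6 CPM with the control vector, 83.8, 72.0 and 72.3 with RSF1 and 54.3, 55.2 and 58.3 with RSF1delUAB, and rose in both (log2 fold change 0.93 ± 0.080, adjusted p = 2.69e-09 and log2 fold change 0.49 ± 0.081, adjusted p = 2.05e-05). RFC5 (chr12:118013588-118033130), another subunit gene of the same complex, stood at 72.1, 70.1 and 75.1 CPM with the control vector, 36.6, 40.3 and 36.8 with RSF1 and 53.9, 59.0 and 58.9 with RSF1delUAB. It fell in both (log2 fold change -0.93 ± 0.075, adjusted p = 9.25e-10 and log2 fold change -0.34 ± 0.072, adjusted p = 0.000354), and here the RSF1 libraries were the lowest. RFC3 (chr13:33818069-33966558) stood at 44.7, 45.9 and 45.1 CPM with the control vector, 37.1, 38.5 and 31.1 with RSF1 and 14.5, 16.3 and 16.8 with RSF1delUAB, so that the RSF1delUAB libraries were the lowest by a wide margin (log2 fold change -0.35 ± 0.089, adjusted p = 0.00179 and log2 fold change -1.51 ± 0.094, adjusted p = 2.03e-11). RFC4 rose with RSF1 (0.37) and stood at 0.043 with RSF1delUAB (adjusted p = 0.671), and the clamp gene PCNA fell slightly in both (-0.22 and -0.29).

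Of the genes that supply nucleotides, RRM2, the regulated subunit of ribonucleotide reductase, fell with RSF1 (-0.42 ± 0.061) and with RSF1delUAB (-0.74 ± 0.061), from 265 to 276 CPM in control to 191 to 212 and 161 to 162. The partner subunit gene RRM1 rose slightly with RSF1 (0.17), a call lost without any 1 of 3 of the libraries (adjusted p 0.0582 to 0.0998). The thymidylate synthase gene TYMS fell with RSF1delUAB (-0.34) and with RSF1 (-0.20), where the call was lost without any 1 of 4 of the 6 libraries and the value was -0.11 without RSF1 replicate 3. POLE, the catalytic subunit of the leading-strand polymerase, stood at 126, 128 and 117 CPM with the control vector, 82.4, 99.5 and 106 with RSF1 and 118, 125 and 118 with RSF1delUAB. It was lower with RSF1 than in both other groups (log2 fold change -0.37 ± 0.081, adjusted p = 0.000464). POLA1, of the polymerase that carries primase, passed in neither comparison (0.14 and 0.044).

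The 4 regulators of S-phase entry split within each pair. E2F1 stood at 146, 156 and 141 CPM with the control vector, 97.5, 87.3 and 87.8 with RSF1 and 83.1, 77.6 and 79.2 with RSF1delUAB, and the control libraries were above all 6 others (log2 fold change -0.70 ± 0.070, adjusted p = 2.30e-08 and log2 fold change -0.89 ± 0.070, adjusted p = 7.39e-10). E2F2, a second activator E2F, did the reverse, at 9.40, 11.2 and 11.4 CPM with the control vector, 19.3, 19.5 and 24.6 with RSF1 and 14.7, 15.2 and 13.2 with RSF1delUAB (log2 fold change 0.98 ± 0.12, adjusted p = 6.19e-07 and log2 fold change 0.43 ± 0.13, adjusted p = 0.00528). Of the cyclins E, which activate CDK2, CCNE2 stood at 15.4, 17.4 and 17.3 CPM with the control vector, 5.54, 7.18 and 7.10 with RSF1 and 7.18, 7.16 and 8.25 with RSF1delUAB. All 6 libraries of the RSF1 forms lay below the controls (log2 fold change -1.34 ± 0.13, adjusted p = 1.91e-08 and log2 fold change -1.15 ± 0.13, adjusted p = 1.09e-07).

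CCNE1 (chr19:29811991-29824312) rose where CCNE2 fell. It stood at 20.8, 17.7 and 17.8 CPM with the control vector, 28.6, 28.3 and 27.7 with RSF1 and 24.0, 21.3 and 22.9 with RSF1delUAB, with the RSF1 libraries highest and no overlap between the 3 groups (log2 fold change 0.59 ± 0.094, adjusted p = 1.50e-05 with RSF1). With RSF1delUAB the rise was smaller (log2 fold change 0.28 ± 0.095, adjusted p = 0.0143), and that call was lost without control replicate 2, control replicate 3 or RSF1delUAB replicate 1 (adjusted p = 0.0630, 0.0597 and 0.0591). SLBP, which binds the stem-loop of histone mRNAs, stood at 111, 111 and 117 CPM with the control vector, 87.3, 79.7 and 71.7 with RSF1 and 51.9, 51.1 and 50.0 with RSF1delUAB, falling step by step over the 3 groups (log2 fold change -0.51 ± 0.074, adjusted p = 4.40e-06 and log2 fold change -1.15 ± 0.075, adjusted p = 4.24e-11). UHRF1, which keeps DNA methylation in place at replication forks, lay between 131 and 145 CPM in all 9 libraries and passed in neither comparison.

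Among mitotic genes the cyclins and CDK1 did not move together. CCNA2 (chr4:121816444-121823883), whose cyclin A2 works in both S phase and G2, stood at 169, 162 and 171 CPM with the control vector, 94.9, 86.8 and 85.9 with RSF1 and 72.4, 71.3 and 71.3 with RSF1delUAB. All 6 libraries of the RSF1 forms lay well below the controls (log2 fold change -0.91 ± 0.065, adjusted p = 1.81e-10 and log2 fold change -1.22 ± 0.066, adjusted p = 2.10e-12). CCNB2 rose slightly with RSF1 (0.23), as did CDK1 (0.20), whose call was lost without any 1 of RSF1 replicates 1 and 2 and control replicates 1 and 2 and whose value was 0.12 without RSF1 replicate 1 and 0.31 without RSF1 replicate 3. CCNB1 fell with RSF1delUAB (-0.17), a call lost without any 1 of the 6 libraries (adjusted p 0.0531 to 0.114).

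The spindle checkpoint kinase genes also differed among themselves. BUB1 was lower with RSF1 (-0.24) and more so with RSF1delUAB (-0.68), and BUB1B was lower in both (-0.47 and -0.51). TTK stood at 71.0, 69.1 and 75.9 CPM with the control vector, 91.1, 92.0 and 78.8 with RSF1 and 63.1, 60.9 and 57.7 with RSF1delUAB, above control with RSF1 and below it with RSF1delUAB (log2 fold change 0.28 ± 0.076, adjusted p = 0.00299 and log2 fold change -0.25 ± 0.076, adjusted p = 0.00720). CDC20, the activator of the anaphase-promoting complex, stood at 407, 423 and 402 CPM with the control vector, 446, 408 and 426 with RSF1 and 302, 285 and 310.0 with RSF1delUAB. Its RSF1 libraries overlapped the controls (log2 fold change 0.055 ± 0.060, adjusted p = 0.432), and its RSF1delUAB libraries were below both (log2 fold change -0.46 ± 0.060, adjusted p = 1.32e-06). UBE2C, the ubiquitin-conjugating enzyme of the same complex, had log2 fold changes of 0.08 (adjusted p = 0.356) and -0.32 (adjusted p = 0.000831).

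PLK1, the Polo kinase gene (chr16:23677656-23690367), stood at 222, 221 and 203 CPM with the control vector, 134, 140.1 and 137 with RSF1 and 122, 120.0 and 117 with RSF1delUAB. The control libraries were far above the other 6 (log2 fold change -0.65 ± 0.063, adjusted p = 1.53e-08 and log2 fold change -0.85 ± 0.063, adjusted p = 3.17e-10). AURKB, the kinase of the chromosomal passenger complex, went the other way, at 56.3, 57.1 and 60.2 CPM with the control vector, 88.0, 77.2 and 85.1 with RSF1 and 70.9, 65.7 and 68.3 with RSF1delUAB (log2 fold change 0.53 ± 0.072, adjusted p = 2.13e-06 and log2 fold change 0.24 ± 0.073, adjusted p = 0.00676). BIRC5, the survivin gene of the same complex, rose less (0.26 and 0.19, the latter call lost without control replicate 3 or RSF1delUAB replicate 1, at adjusted p = 0.0846 and 0.0556). AURKA stood at -0.039 with RSF1 (adjusted p = 0.600) and fell with RSF1delUAB (-0.34). Its activator TPX2 rose with RSF1 (0.22) and fell with RSF1delUAB (-0.17), where the call was lost without control replicate 1 or RSF1delUAB replicate 1 (adjusted p = 0.0696 and 0.0864).

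Centromere genes moved in opposite directions. CENPA, the centromeric histone, with 1949 exon bases, rose with RSF1 (log2 fold change 0.33 ± 0.088, adjusted p = 0.00244) and with RSF1delUAB (log2 fold change 0.29 ± 0.087, adjusted p = 0.00574). CENPE, a kinetochore motor gene of 9928 exon bases, stood at 83.3, 93.2 and 93.4 CPM with the control vector, 49.6, 60.3 and 54.6 with RSF1 and 49.3, 51.7 and 48.3 with RSF1delUAB, below control in all 6 libraries (log2 fold change -0.71 ± 0.080, adjusted p = 1.27e-07 and log2 fold change -0.85 ± 0.080, adjusted p = 9.32e-09). CENPF, a kinetochore gene of 11646 exon bases, fell as well (-0.49 and -0.62). DLGAP5, a microtubule binder of the spindle, stood at 78.3, 78.0 and 78.6 CPM with the control vector, 115, 118 and 109 with RSF1 and 99.3, 103 and 100.5 with RSF1delUAB, above control in all 6 libraries (log2 fold change 0.54 ± 0.064, adjusted p = 3.14e-07 and log2 fold change 0.37 ± 0.064, adjusted p = 4.61e-05). KIF20A, a kinesin of cytokinesis, stood at 101, 102 and 92.6 CPM with the control vector, 136, 145 and 146 with RSF1 and 131, 129.7 and 138 with RSF1delUAB, also without overlap with control (log2 fold change 0.53 ± 0.066, adjusted p = 6.22e-07 and log2 fold change 0.43 ± 0.066, adjusted p = 9.54e-06). The kinesin KIF11 stood at -0.026 with RSF1 (adjusted p = 0.758) and fell with RSF1delUAB (-0.21), a call lost without control replicate 3 or RSF1delUAB replicate 1 (adjusted p = 0.0745 and 0.109).

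MKI67, the gene of the proliferation antigen Ki-67, has 12845 exon bases and varied within the RSF1 group, at 639, 635 and 652 CPM with the control vector, 321, 491 and 534 with RSF1 and 409, 441 and 454 with RSF1delUAB. All 6 values lay below the controls (log2 fold change -0.52 ± 0.12, adjusted p = 0.000569 and log2 fold change -0.56 ± 0.12, adjusted p = 0.000248), and without RSF1 replicate 1 the log2 fold change with RSF1 was -0.32. In that library gene length was read over genes with a mean log2 CPM of at least 3. The 1328 longest, of at least 11488 exon bases, had a median 0.21 log2 units below the mean of the other RSF1 libraries. The 292 shortest had a median 0.31 above it. CENPE, of 9928 exon bases, is below this limit, and the S-phase genes POLE (12364) and POLA1 (15547) are above it. Both were lowest in replicate 1 among the RSF1 libraries. The part of gene length in the values of MKI67, CENPE, CENPF, POLE and POLA1 was not tested.

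Next, RSF1delUAB was set against the same 3 control libraries, which asks for the changes that come with RSF1 lacking this region. Of the 45 genes, 11 were higher and 24 lower than control (24.4% and 53.3%), where 34.5% of all tested genes were higher and 32.1% lower (66.6% in either direction). Among S-phase genes 6 of 24 rose and 10 fell (median log2 fold change -0.027), and among mitotic genes 5 of 21 rose and 14 fell (median -0.25). In the mitotic class the 14 genes that fell include all 3 checkpoint kinases, CDC20, UBE2C, PLK1, AURKA and TPX2.

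**Figure D3:**
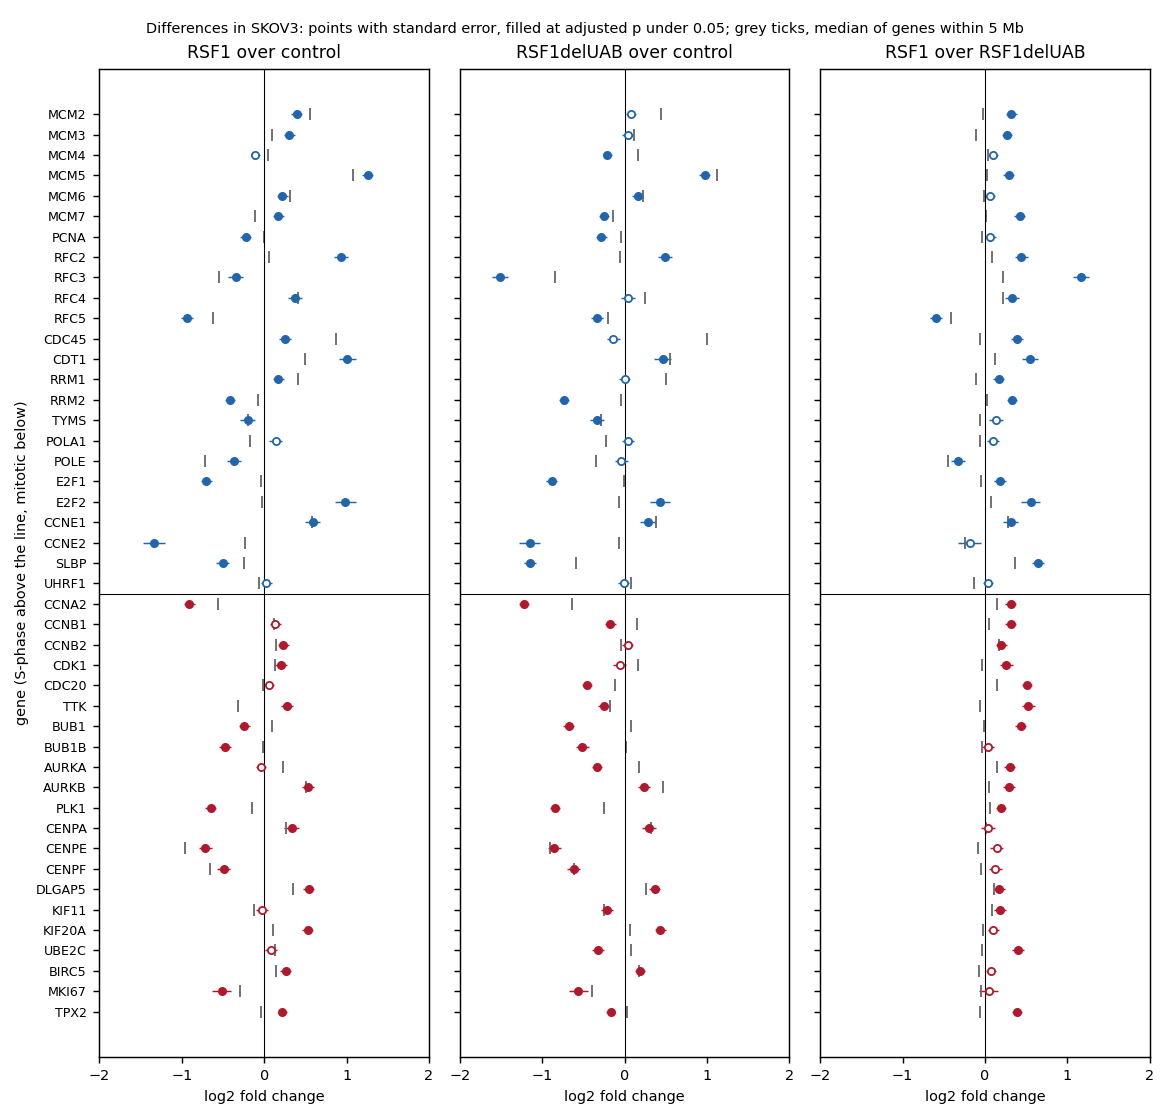
Log2 fold changes (horizontal axes) of the 45 genes in the 3 SKOV3 comparisons, as points with standard errors, filled at an adjusted p under 0.05, with grey ticks at the median of tested genes within 5 Mb. In the third panel 42 of 45 points lie to the right of 0, with RFC5, POLE and CCNE2 to the left.

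The third comparison set RSF1 directly against RSF1delUAB. These groups differ in the UAB region, but also in the level of RSF1 (647 to 789 against 468 to 515 CPM). ERBB2 differed as well (2192 to 2897 against 7393 to 7888 CPM). The part of the UAB region cannot be told apart from these differences here. Of the 45 genes 29 were higher with RSF1 and 2 lower, and 42 had a log2 fold change above 0, while 18.5% of all tested genes were higher and 20.2% lower (38.6% in either direction). Among S-phase genes 15 of 24 were higher and 2 lower (median 0.28). Among mitotic genes 14 of 21 were higher and 0 lower (median 0.20) by edgeR, 0 were lower at an unadjusted p under 0.05, and DESeq2 gave the same counts of 14 and 0. All 21 mitotic genes had values above 0, and the median of all tested genes was 0.0017.

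RFC3 differed most among the 45. Its RSF1 libraries (37.1, 38.5 and 31.1 CPM) lay above its RSF1delUAB libraries (14.5, 16.3 and 16.8), at a log2 fold change of 1.17 ± 0.095 (adjusted p = 6.02e-09). SLBP (log2 fold change 0.64 ± 0.075, adjusted p = 1.02e-06), E2F2 (log2 fold change 0.55 ± 0.12, adjusted p = 0.000794) and CDT1 (log2 fold change 0.55 ± 0.095, adjusted p = 0.000109) were the next rises in size, and for each the 3 RSF1 libraries were above the 3 RSF1delUAB libraries. Of the helicase subunit genes MCM2, MCM3, MCM5 and MCM7 were higher, at log2 fold changes from 0.27 to 0.42. RFC4 was also higher (0.33), and at 0.21 without RSF1 replicate 1, as were RFC2 (0.44), CDC45 (0.39), RRM2 (0.32), RRM1 (0.17) and E2F1 (0.18). MCM4, MCM6, PCNA, TYMS, POLA1 and UHRF1 did not pass, at 0.037 to 0.14.

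On the mitotic side TTK led (log2 fold change 0.53 ± 0.076, adjusted p = 1.28e-05), ahead of CDC20 (log2 fold change 0.51 ± 0.060, adjusted p = 1.04e-06) and BUB1 (log2 fold change 0.43 ± 0.069, adjusted p = 3.95e-05). UBE2C (0.40), TPX2 (0.39), CCNA2 (0.31), CCNB1 (0.31), AURKA (0.30) and AURKB (0.29) were higher with RSF1 as well. The 3 centromere genes, BUB1B, KIF20A, BIRC5 and MKI67 did not pass, at values from 0.036 to 0.14. All 4 cyclin and CDK1 genes passed, although the calls of CCNB2 and CDK1 were among 8 that were lost without some single library (CCNB2, CCNE1, CDK1, DLGAP5, E2F1, KIF11, PLK1 and RRM1), CCNE1 at adjusted p = 0.0600 without RSF1delUAB replicate 2.

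The 2 falls were RFC5 (log2 fold change -0.60 ± 0.075, adjusted p = 2.43e-06) and POLE (log2 fold change -0.33 ± 0.081, adjusted p = 0.00290), both on chromosome 12. For both, each RSF1 library was below each RSF1delUAB library. CCNE1 was higher with RSF1 (log2 fold change 0.31 ± 0.092, adjusted p = 0.0107) and CCNE2 did not differ beyond the spread (-0.18, adjusted p = 0.322).

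Genes close to several members moved with them. For each gene the median log2 fold change of all tested genes within 5 Mb on either side was taken, from at least 10 genes. Around MCM5 this median was 1.08 with RSF1 and 1.13 with RSF1delUAB, close to the fold changes of MCM5 itself, and taking it off left 0.18 and -0.15. Around CENPE it was -0.96 and -0.90, which left 0.24 and 0.050, and around AURKB with RSF1 it was 0.51, which left 0.022. Of the 37 genes called with RSF1, 9 changed sign after subtraction, 12 kept the sign with less than 50% of the fold change left and 16 kept at least 50%; of the 35 called with RSF1delUAB, the counts were 8, 11 and 16.

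Several of the larger differences shrank. With RSF1, CCNA2 was left at -0.34, RFC5 at -0.32, CDT1 at 0.51 and DLGAP5 at 0.19. With RSF1delUAB, RFC3 was left at -0.66, SLBP at -0.55 and CCNA2 at -0.58. Near E2F1, E2F2, PLK1 and KIF20A the medians with RSF1 lay between -0.15 and 0.10, and these genes were left at -0.67, 1.02, -0.51 and 0.43.

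Between the 2 RSF1 forms 1 of the 31 called genes changed sign, 6 kept the sign with less than 50% of the fold change left and 24 kept at least 50%. After subtraction the S-phase median was 0.25 and the mitotic median 0.17, against 0.28 and 0.20 before it. RFC3 was left at 0.95, TTK at 0.59, CDC20 at 0.36 and BUB1 at 0.45, while SLBP was left at 0.27, RFC5 at -0.18 and CCNE1 at 0.036. POLE changed sign, to 0.12, with genes around it at a median of -0.45. Against control, the S-phase median with RSF1 went from 0.15 to -0.022, and with RSF1delUAB from -0.027 to -0.14. The cause of these regional shifts was not tested, and no DNA copy number was used here.

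The fourth comparison asked whether the UAB peptide shifts the same genes in OVCAR3. Of the 45 genes 1 was higher and 1 lower, while 5.45% of 18359 tested genes were higher and 5.46% lower (10.9% in either direction). At an unadjusted p under 0.05 there were 12 of the 45, 5 S-phase and 7 mitotic, beside 25.4% of all tested genes. The S-phase median was -0.054 with 9 of 24 values above 0, the mitotic median was 0.098 with 16 of 21 above 0, and the median of all tested genes was 0.0089. With 1 library left out the S-phase median ran from -0.020 (without scramble replicate 1) to -0.14 (without scramble replicate 2), and the mitotic median from 0.18 to 0.041 without the same libraries. With 2 libraries a group and 2 residual degrees of freedom, standard errors for these genes were 0.13 to 0.23 log2 units.

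CENPF was the 1 rise, at 135 and 164 CPM with the scramble control and 246 and 205 with the peptide (log2 fold change 0.59 ± 0.15, adjusted p = 0.0178). The 2 groups did not overlap, and the call was lost without scramble replicate 1 (adjusted p = 0.183) or UAB replicate 1 (0.109). E2F1 was the 1 fall, at 130.2 and 111 CPM with the scramble control and 83.9 and 91.1 with the peptide (log2 fold change -0.46 ± 0.14, adjusted p = 0.0435), also without overlap, and its call was lost without scramble replicate 1 (adjusted p = 0.378), UAB replicate 1 (0.211) or UAB replicate 2 (0.0586). Other long mitotic genes had values on the same side as CENPF, MKI67 at 136 and 209.7 against 299 and 206 CPM (log2 fold change 0.55 ± 0.20, adjusted p = 0.0959) and CENPE at 47.4 and 53.5 against 76.7 and 55.3 (log2 fold change 0.39 ± 0.16, adjusted p = 0.146). The 1439 longest genes with a mean log2 CPM of at least 3 had a median difference of -0.16 between scramble replicate 1 and scramble replicate 2. Between UAB replicate 1 and UAB replicate 2 their median difference was 0.21. Scramble replicate 1 and UAB replicate 1 held the lowest and highest values of CENPF, MKI67 and CENPE. CENPE, of 9928 exon bases, was below the limit of 11258 for the longest genes. The S-phase genes POLA1 and POLE, above it, stood at -0.20 and 0.045. The part of gene length in these values was not tested. After CENPF and E2F1 came CCNE1, CCNB2 (0.43, adjusted p = 0.0683) and RFC3 (-0.44, adjusted p = 0.0707), which did not pass. The 43 genes that did not pass lay between -0.44 and 0.55.

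CCNE1 was the S-phase gene with the largest difference between the OVCAR3 scramble control and SKOV3 control. On 1 scaling over both tables it stood at 146 and 118 CPM with the scramble control and 91.4 and 102 with the UAB peptide, and at 20.5, 17.6 and 17.7 in SKOV3 control, 24.5, 21.6 and 23.2 with RSF1delUAB and 29.3, 28.7 and 28.5 with RSF1. Every OVCAR3 library was above every SKOV3 library, and the scramble control was 7.10 times the SKOV3 control (log2 fold change 2.83 ± 0.11, adjusted p = 2.05e-16). Within OVCAR3 both peptide libraries were below both scramble libraries, but the difference did not pass (log2 fold change -0.44 ± 0.14, adjusted p = 0.0635, unadjusted p = 0.00794); it did with DESeq2 (adjusted p = 0.0499), without the low-count filter (0.0289) and without scramble replicate 2 (0.0230). In rising order the groups were SKOV3 control, RSF1delUAB, RSF1, OVCAR3 UAB peptide and OVCAR3 scramble control, and of the neighbours in this order the last pair did not pass and the pair across the lines was not tested.

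**Figure D4:**
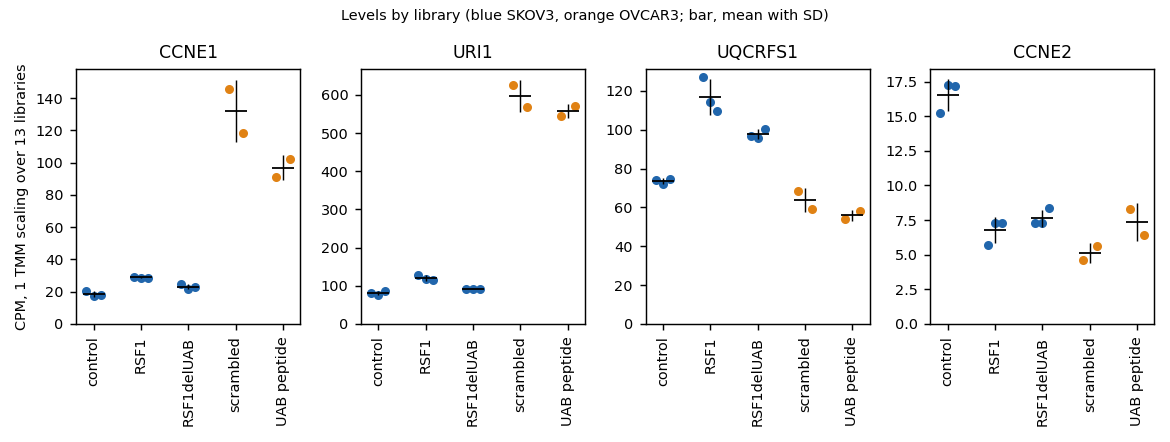
CPM on 1 scaling over all 13 libraries (vertical axes, from 0) of CCNE1, its neighbours URI1 and UQCRFS1, and CCNE2, for the 5 groups; points are libraries (blue SKOV3, orange OVCAR3) and bars the mean with SD. CCNE1 and URI1 are highest in the 4 OVCAR3 libraries, whereas UQCRFS1 and CCNE2 are not.

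The other cyclin E gene did not share this. CCNE2 stood at 4.64 and 5.66 CPM with the scramble control against 15.2, 17.3 and 17.2 in SKOV3 control (log2 fold change -1.68 ± 0.17, adjusted p = 6.33e-09). Per kilobase of exon, CCNE1 averaged 53.6 CPM and CCNE2 1.17 in the OVCAR3 scramble control, against 7.55 and 3.77 in SKOV3 control. Per kilobase, the level of CCNE1 thus exceeded that of CCNE2 in both lines, by far more in OVCAR3. In CPM, without division by exon length, both genes lay close together in SKOV3 control. The level of CCNE2 is among those uncertain through overlap, here with INTS8.

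Genes with a symbol next to CCNE1 on 19q12 were higher in OVCAR3 by similar amounts. OVCAR3 is known for amplification of this region. Within 0.206 Mb of the CCNE1 start, POP4 (log2 fold change 2.82 ± 0.099, adjusted p = 6.17e-17), PLEKHF1 (3.13), C19orf12 (3.10) and URI1 (2.88) lay between 2.82 and 3.13, beside 2.83 for CCNE1. The next tested genes with a symbol outward were UQCRFS1, 0.607 Mb before CCNE1 (-0.20), and TSHZ3, 1.34 Mb after it, with 48 counts over the SKOV3 control libraries and 2 over the OVCAR3 scramble libraries. Neither was higher in OVCAR3. VSTM2B had 0 counts in either group and ZNF536 had 2 and 0, so neither was tested. Tested genes without a symbol between UQCRFS1 and TSHZ3 stood at 6.63 (0.097 Mb before CCNE1), 7.99 (0.027 Mb after it) and 2.40 (0.225 Mb after it). Over all tested genes within 5 Mb the median was 0.94, with values on both sides of 0. With the UAB peptide the 5 tested neighbours had values from -0.19 to 0.066 and none passed by edgeR, 0 of them at an unadjusted p under 0.05. Of all tested genes 10.9% passed in either direction. CCNE1 was at -0.44 and did not pass either. In SKOV3 with RSF1, where CCNE1 was at 0.59, 4 of 6 tested neighbours rose: UQCRFS1 (0.63), C19orf12 (0.69), URI1 (0.52) and PLEKHF1 (0.40). The other 2, POP4 among them, did not pass, and the lowest value was -0.073. Of all tested genes 34.3% were higher, and 67.3% were called in either direction. The median within 5 Mb was 0.58, and 0.39 with RSF1delUAB, which left CCNE1 at 0.013 and -0.11.

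**Figure D5:**
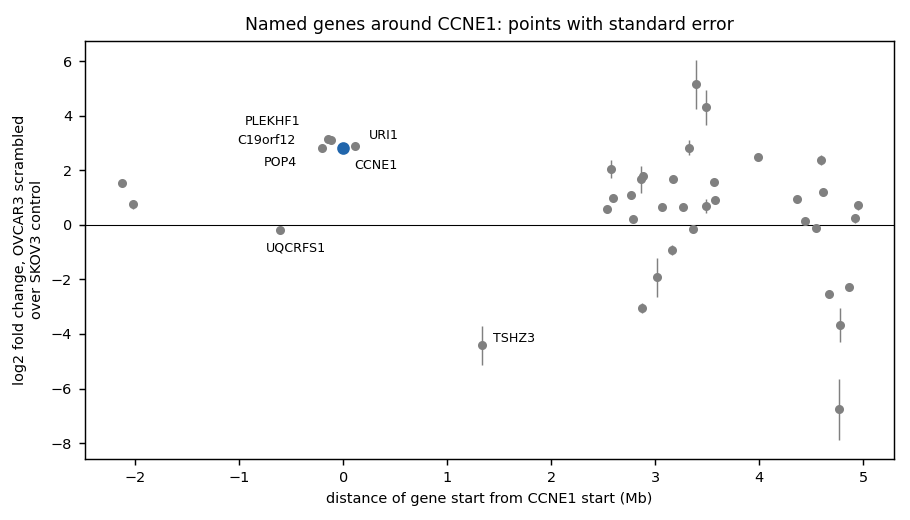
Log2 fold change of the OVCAR3 scramble control over SKOV3 control (vertical axis, points with standard error) for tested genes with a symbol, against the distance of their start from that of CCNE1 in Mb (horizontal axis). POP4, PLEKHF1, C19orf12, CCNE1 (blue) and URI1 lie together between 2.82 and 3.13, and UQCRFS1 and TSHZ3 on either side lie below 0.

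Apart from CCNE1, most of the 45 genes were lower in OVCAR3. Against SKOV3 control, 6 were higher and 32 lower in the scramble control, where 40.6% of 19946 tested genes were higher and 36% lower (76.5% in either direction); line, vector, doxycycline and count table differ together here and cannot be told apart. Among S-phase genes 5 of 24 were higher and 14 lower (median -0.34). Among mitotic genes 1 of 21 was higher and 18 lower (median -0.67), and the median of all tested genes was 0.075. With the 2 groups fitted alone, 2 mitotic genes were higher, beside 7726 of 18056 tested genes.

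Of the S-phase genes, E2F2 was higher in OVCAR3, at 18.5 and 18.6 CPM against 9.27, 11.1 and 11.4 (log2 fold change 0.81 ± 0.13, adjusted p = 1.18e-05). CDC45 was higher as well (log2 fold change 0.76 ± 0.098, adjusted p = 3.23e-07), next to genes with a median of 1.54, as were MCM7 (0.41) and RFC3 (0.32), the RFC3 call lost without scramble replicate 1 (0.20, adjusted p = 0.172). UHRF1 was at 42.2 and 38.2 CPM against 129, 144 and 131 (log2 fold change -1.75 ± 0.087, adjusted p = 3.95e-14). PCNA was at 98.8 and 88.1 CPM against 225, 225 and 216 (log2 fold change -1.25 ± 0.090, adjusted p = 2.54e-11), and RFC5 (-1.11), MCM4 (-1.04) and SLBP (-1.002) were lower by about as much. MCM2, RFC2, RFC4, CDT1 and TYMS did not pass, at -0.23 to 0.27. E2F1 (-0.31) and RRM1 (-0.31) were lower with calls that were lost without scramble replicate 2 (adjusted p = 0.111 and 0.0638), E2F1 then standing at -0.19.

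Of the mitotic genes, MKI67 was at 133 and 205 CPM against 630.3, 630.3 and 647 (log2 fold change -1.91 ± 0.18, adjusted p = 3.50e-09). CDC20 (log2 fold change -1.70 ± 0.094, adjusted p = 2.38e-13), PLK1 (log2 fold change -1.59 ± 0.097, adjusted p = 1.32e-12) and CENPF (-1.55) were lower too, each without overlap. All 5 mitotic kinases and partners, all 3 checkpoint kinases and all 3 centromere genes were lower, while CCNB2 (-0.091) and CDK1 (0.16) did not pass. The 1 rise was DLGAP5, at 116 and 117 CPM against 77.3, 77.5 and 78.0 (log2 fold change 0.58 ± 0.077, adjusted p = 5.47e-07), beside a median of 0.67 for genes around it. UBE2C was at -0.53, and at -0.32 without scramble replicate 2, and the KIF11 call (-0.21) was lost without either scramble library or control replicate 1 or 3 (adjusted p 0.0529 to 0.159).

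Other genes of the same pathways were read from lists of related genes. Of 38 further licensing and replisome genes, 10 rose and 15 fell with RSF1 (median -0.10), which is 26.3% and 39.5% against 34.3% and 32.9% of all tested genes. With RSF1delUAB 8 rose and 21 fell (median -0.22), 21.1% and 55.3% against 34.5% and 32.1%. With RSF1 16 were higher and 1 lower than with RSF1delUAB (median 0.19), 42.1% and 2.63% against 18.5% and 20.2%. With RSF1 the thymidine kinase TK1 (1.51) and the polymerase subunit POLD1 (0.67) rose, and RFC1 (-1.01), the large subunit of the clamp loader, and the CDT1 inhibitor GMNN (-1.12) fell. With RSF1delUAB TK1 (0.99) and the ligase LIG1 (0.62) rose and RFC1 (-1.22) and GMNN (-1.12) fell. Between the 2 forms TK1 (0.52) and MCM10 (0.65) were higher with RSF1 and ORC4 (-0.24) was lower. None of the 38 passed with the UAB peptide by edgeR (2 at an unadjusted p under 0.05), where 5.45% and 5.46% of all genes did. In OVCAR3 against SKOV3 9 were higher and 23 lower (23.7% and 60.5%, against 40.6% and 36%), among them WDHD1 (1.01), POLE2 (1.31), CDC6 (-1.38) and GINS3 (-1.78).

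Of 46 further spindle, kinetochore and cytokinesis genes, 7 rose and 24 fell with RSF1 (median -0.19), which is 15.2% and 52.2% against 34.3% and 32.9% of all tested genes. With RSF1delUAB 4 rose and 31 fell (median -0.43), 8.70% and 67.4% against 34.5% and 32.1%. With RSF1 24 were higher and 3 lower than with RSF1delUAB (median 0.24), 52.2% and 6.52% against 18.5% and 20.2%. With RSF1 the centromere protein CENPM (0.78) and the kinesin KIF18A (0.59) rose, and SKA3 (-1.57), of the kinetochore SKA complex, and the kinesin KIF14 (-1.37) fell. With RSF1delUAB the topoisomerase TOP2A (0.55) and KIF18A (0.31) rose and SKA3 (-1.82) and the condensin subunit NCAPG (-1.15) fell. Between the forms TACC3 (0.85) and CKAP2L (0.75) were higher with RSF1, and TOP2A (-0.41) and KIF18B (-0.49) lower. With the UAB peptide 1 of the 46 passed, the condensin subunit SMC4 (0.57), where 5.45% and 5.46% of all genes were higher and lower. In OVCAR3 against SKOV3, 1 was higher, the securin PTTG1 (0.49), and 38 were lower (median -1.04; 2.17% and 82.6%, against 40.6% and 36% of all tested genes), among them the condensin subunits SMC2 (-2.19) and NCAPG (-1.80).

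A further list held 18 genes, G2/M regulators and subunits of MuvB, the complex that reads CHR elements. Of these 7 rose and 10 fell with RSF1 (median -0.23), which is 38.9% and 55.6% against 34.3% and 32.9% of all tested genes. With RSF1delUAB 4 rose and 9 fell (median -0.13), 22.2% and 50% against 34.5% and 32.1%, and 5 were higher and 2 lower between the forms (median 0.20), 27.8% and 11.1% against 18.5% and 20.2%. GTSE1 (0.99) and MYBL2 (0.49) rose with RSF1, and the MuvB subunit LIN54 (-1.001) and the phosphatase CDC25B (-0.54) fell. With RSF1delUAB GTSE1 (0.80) and CDC25B (0.38) rose and the MuvB subunits LIN54 (-1.22) and LIN9 (-1.20) fell. PKMYT1 (0.80) and MYBL1 (0.57) were higher and CDC25B (-0.92) and RBBP4 (-0.23) lower with RSF1 than with RSF1delUAB. With the UAB peptide MYBL1 (-1.65) and the CDK1 inhibitory kinase PKMYT1 (-0.61) fell, beside 5.45% and 5.46% of all genes higher and lower. In OVCAR3 3 were higher and 12 lower (median -0.59), 16.7% and 66.7% against 40.6% and 36%, with LIN52 (0.99) and CDKN3 (0.67) higher and CDC25B (-2.36) and FZR1 (-2.12) lower.

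Of 28 G1/S regulators 25 were tested in SKOV3. With RSF1 6 rose and 17 fell (median -0.54), which is 24% and 68% against 34.3% and 32.9% of all tested genes. With RSF1delUAB 6 rose and 15 fell (median -0.50), 24% and 60% against 34.5% and 32.1%. With RSF1 the repressor E2F8 (1.30) and the CDK inhibitor CDKN1C (1.61) rose, and the cyclin CCND1 (-1.85) and the E2F partner TFDP1 (-1.55) fell. With RSF1delUAB CDKN1C (2.41) and TFDP2 (0.85) rose and E2F7 (-2.46) and TFDP1 (-1.66) fell. Between the forms 6 were higher and 6 lower (median -0.048), 24% and 24% against 18.5% and 20.2%, with the retinoblastoma gene RB1 (0.94) and CDC25A (0.63) higher and E2F5 (-0.80) and CDKN1A (-0.75) lower with RSF1. With the UAB peptide CDK6 (0.73) rose and CDKN2B (-1.22) and CCND3 (-0.65) fell, of 27 tested, beside 5.45% and 5.46% of all genes higher and lower. In OVCAR3 against SKOV3, 10 were higher and 12 lower (median -0.12), 37.0% and 44.4% against 40.6% and 36%, among them CDKN1C (4.02), E2F7 (-4.48) and CDKN2C (-3.67), and CDKN2A, the p16 gene, which had 0 counts in SKOV3 control and 521 CPM in the OVCAR3 scramble control, was at least 8136-fold higher by a floor of 3 counts over the control group. The G1/S median is the same with CDKN2A and CDKN2B, which also had 0 counts in SKOV3 control, at their bounds.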

How the data were processed

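Poly-A RNA of 13 libraries was sequenced. The authors deposited raw counts per gene in 1 table for each cell line; per the submitters' processing notes FastQC, STAR 2.7.9a and Subread were used, and the builds named are GRCh38, hg38 and GRCm38, the last a mouse build, with no role given although the cells are human. Not given in the sources used here were the annotation release and the use of strand in counting. One column of the OVCAR3 table carries an unexplained extra letter and was read as scramble control replicate 2. One gene record split over 3 lines was rejoined. Library totals were 15194678 to 24026993 counts, and replicate pairs differed by more than counting error (chi-square over its degrees of freedom 2.27 to 16.4).

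Genes with low counts were removed with filterByExpr (minimum count 10), libraries were scaled by TMM, and edgeR 4.0.16 (R 4.3.3, limma 3.58.1) ran its quasi-likelihood test with Benjamini-Hochberg adjustment over all tested genes at 0.05. The 9 SKOV3 libraries were fitted together, the 4 OVCAR3 libraries together, and all 13 for the comparison of lines; ± is a standard error taken from the test. CPM are scaled by TMM, per line for comparisons within a line. Levels of RSF1 and of the cell type markers, and levels set between the lines, are on 1 scaling over both tables. The CPM of CDKN2A is its summed count over the unscaled library totals. SD in the plot of levels is over libraries. The fit was tested on simulated data. Alternatives were DESeq2 1.42.0, its scaling, no filter, the 2 groups alone, a replicate block, leaving out each library, and, chosen after seeing the data, subtraction of the median of nearby genes (within 5 Mb) and crossed replicate numbers.

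The 45 genes and the lists of related genes were chosen with earlier results of these data known. All 45 are described by role; in each comparison the 3 largest rises and falls of each class, CCNE1 with its neighbours, and up to 2 risen and 2 fallen genes of smallest adjusted p in each related list are named.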

Additional observations from a re-analysis of the deposited data

How the results depend on the processing

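Alternatives here were scaling by DESeq2's size factors, no low-count filter, DESeq2, the 2 groups alone and the replicate block. In the 3 SKOV3 comparisons they kept the counts within 1.5 times. They moved the medians by less than the pooled SD of library medians within groups, 0.060 (S-phase) and 0.053 (mitotic) log2 units. Scaling moved the median gene by at most 0.034 on the log2 scale. Same-numbered libraries deviated from their group means with correlations of -0.042 to 0.071 in SKOV3 and -0.15 in OVCAR3, so the numbers were not taken as pairs. The replicate block left 0 S-phase genes lower with the UAB peptide (E2F1 adjusted p = 0.162), beside 842 of 18359 tested genes lower. Crossing the OVCAR3 numbers gave 2 S-phase genes higher and 5 lower, 8 mitotic genes higher and 2 lower, and CCNE1 at -0.44 (adjusted p = 3.64e-06), against 2560 genes higher and 2537 lower of all tested. For the peptide, DESeq2 gave 2 S-phase genes lower and CCNE1 at -0.45 (adjusted p = 0.0499), beside 933 of 18359 tested genes lower. No filter gave 2 S-phase genes lower, 2 mitotic genes higher and CCNE1 at -0.45 (0.0289), beside 1261 of 34958 tested genes lower and 1279 higher. With the OVCAR3 and SKOV3 control groups fitted alone 2 mitotic genes were higher, beside 7726 of 18056 tested genes. The cause of these changes was not tested.

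With the median of nearby genes taken off, the S-phase median was -0.022 with RSF1, -0.14 with RSF1delUAB and -0.52 between lines, and the mitotic median -0.19 with RSF1delUAB and -0.72 between lines. CCNE1 went to 0.013 with RSF1, 0.036 between the RSF1 forms and 1.88 between lines, and reversed to -0.11 with RSF1delUAB. Of called genes, 9 of 37 changed sign with RSF1, 8 of 35 with RSF1delUAB, 1 of 31 between the forms, 0 of 2 with the peptide and 4 of 38 between lines. Among the largest changes these were CENPE with RSF1 (0.24), CDT1 (-0.084), CENPA (-0.023), CENPE (0.050) and MCM5 (-0.15) with RSF1delUAB, POLE between the forms (0.12), and CDC45 (-0.77) and DLGAP5 (-0.083) between lines.

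Leaving out 1 library at a time, the mitotic median with RSF1 ran from 0.021 to 0.16, and CCNE1 from 0.24 to 0.36 with RSF1delUAB and from 0.26 to 0.35 between the forms. For the peptide, where this left 1 library in a group, the S-phase median ran from -0.14 to -0.020. The mitotic median ran from 0.041 to 0.18 and CCNE1 from -0.59 to -0.29. Between lines the S-phase median ran from -0.41 to -0.26 and the mitotic median from -0.73 to -0.60. Of genes called, 4 of 37 lost the call without some library with RSF1, 6 of 35 with RSF1delUAB, 8 of 31 between the forms, 2 of 2 with the peptide and 4 of 38 between lines. With 2 libraries a group, standard errors of these genes in OVCAR3 were 0.13 to 0.23 on the log2 scale. E2F1 at -0.46 passed, while RFC3 at -0.44 and MKI67 at 0.55 did not, so differences of this size could be missed.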
